A study of Xenopus laevis with 8 samples.

Results

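The comparison set explants that expressed Flag-tagged Pinhead against control explants and asked which genes Pinhead alone turns on or off in isolated ectoderm. It used 4 of the 8 libraries of the series, 2 from Pinhead explants (libraries 5 and 6) and 2 from control explants (libraries 1 and 2), and 23130 of the 45035 genes in the count table passed the filter on low counts and were tested. The libraries were chosen by their labels alone. All explants were ectoderm cut from wild-type embryos of the frog Xenopus laevis, were kept in 0.6 x MMR, a salt solution for amphibian tissue, and reached the early neurula stage before RNA was taken, when the neural plate forms in the whole embryo. The Pinhead explants expressed Flag-tagged Pinhead, which the control explants did not. The other 4 libraries came from explants that expressed Chordin together with Pinhead (libraries 7 and 8) or Chordin alone (libraries 3 and 4) and serve here to set the effect of Pinhead beside its effect where Chordin was also present. The titles of libraries 5 and 6 carry an F before the name of Pinhead, which those of libraries 7 and 8 do not. Whether both groups had the same Pinhead construct cannot be told from these titles. The labels do not give the form, amount or place of delivery of either protein. Nor do they say whether the 2 libraries of each group stand for separate batches of embryos, so every p-value rests on a spread that may be technical.

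Pinhead is a secreted protein made around the blastopore of the frog gastrula, in the ring of tissue that gives mesoderm and the posterior body. Ectoderm cut from an early embryo becomes epidermis when left alone, and becomes mesoderm or neural tissue when it meets signals such as fibroblast growth factors (FGFs), Nodal ligands or antagonists of bone morphogenetic proteins (BMPs). In the ring of mesoderm, the T-box factor Brachyury, FGFs and Wnt ligands keep each other active, and the caudal (cdx) and Hox homeobox genes give posterior identity. Many genes of Xenopus laevis exist as a long (.L) and a short (.S) copy, and each was counted as a separate gene. Where the copies are nearly identical, reads can be exchanged between them in counting, so single copies are less certain than the pair.

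The libraries held 19677493 and 15052017 counts with Pinhead and 17455372 and 16049183 counts in control, and levels are given as CPM, read counts scaled for library size and composition, where 1 CPM stood for 14.5 to 19 counts. Across genes, the log2 CPM of the 2 Pinhead libraries correlated at r = 0.9862 and that of the 2 control libraries at 0.9895, and the mean chi-square per gene between the libraries of a group was 9.4 with Pinhead and 3.24 in control. For pinhead itself, the copy pnhd.L had 1254 and 739 CPM in Pinhead explants, against 1.21 and 0.328 CPM in control explants. The short copy pnhd.S had 7.07 and 9.98 CPM in Pinhead explants, against 0 and 0.0656 CPM in control explants. Both copies were thus high in the libraries labelled with Pinhead, with a log2 fold change for pnhd.L of 10.30 ± 0.44 (SE, adjusted p = 6.77e-06, with 11.54 without library 1 and 9.68 without library 2) and a ratio of 265 for pnhd.S (95% counting interval 47.2 to 10503, with a fitted log2 fold change of 7.77, and 6.87 without library 1 and 10.19 without library 2). The table does not separate RNA of the introduced construct from that of the embryo's own gene, and the 2 sources cannot be told apart. The chordin copy chrd.S stayed low, at 0.633 and 1.17 CPM in Pinhead explants, against 0.483 and 0.656 CPM in control explants (0.62 ± 0.35, adjusted p = 0.357).

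More genes rose than fell with Pinhead, and large changes were more frequent among those that rose. Of the 23130 genes tested, 1562 were called higher with Pinhead (6.75%) and 907 were called lower (3.92%), a gene being called where its adjusted p in edgeR's quasi-likelihood test was under 0.05. Among the genes called higher, 698 changed at least 2-fold, 361 at least 4-fold and 115 at least 32-fold. Among those called lower, 225 changed at least 2-fold, 36 at least 4-fold and 2 at least 32-fold. Of the genes called higher, 319 (20.4%) had a mean control level under 1 CPM and 49 had no count in either control library, against 16 (1.76%) of those called lower with a mean control level under 1 CPM. The median log2 fold change was 0.88 over genes called higher, -0.65 over genes called lower and -0.01 over all genes tested. No called gene had overlapping library levels, whereas over all genes tested the groups did not overlap in 28.6% with Pinhead higher and in 29.2% with Pinhead lower. Library 5 stood above library 6 in 933 (59.7%) of the genes called higher, against 12052 (52.1%) of all genes tested, and below it in 614 (67.7%) of those called lower.

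The number of calls depended strongly on single libraries. Leaving out 1 library at a time gave 471 higher and 89 lower without library 1, 491 and 130 without library 2, 722 and 212 without library 5, and 1413 and 821 without library 6. Leaving out libraries of the other groups, which enter through the shared estimate of spread, gave 965 and 377 without library 3, 967 and 379 without library 4, 2576 and 1911 without library 7, and 2577 and 1911 without library 8. Calls of Pinhead over control printed below with their adjusted p held without any 1 library except where a loss is given. Members named only within a count, zic2.S, slc16a9.S and the differences between effects with and without Chordin were not all followed singly. Counts of calls in the lists below are to be read beside the shares over all genes tested, 6.75% higher and 3.92% lower.

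**Figure D1:**
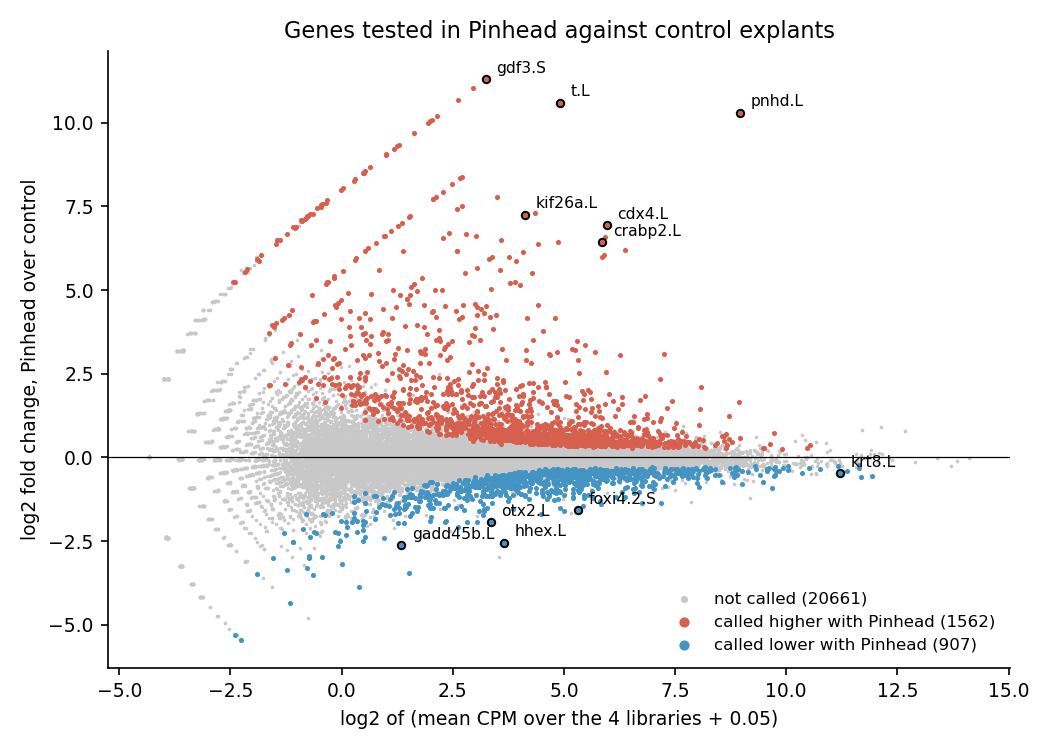
Each point is a gene, with the log2 of its mean CPM over the 4 libraries plus 0.05 on the horizontal axis and its log2 fold change, Pinhead over control, on the vertical axis. Genes called higher (1562) reach far larger fold changes than genes called lower (907), and the upper diagonal lines hold genes with 0 or few control counts, whose fitted fold depends on the prior count of the model.

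Of the 8 copies of 4 defining genes of epidermis, 7 were not called and 1, epcam.S, was lower. The epidermal regulator tp63.S had 328 and 287 CPM with Pinhead, beside 268 and 277 CPM in control, and grhl3.S, a grainyhead factor of the epidermal barrier, had 481 and 439 CPM with Pinhead, beside 486 and 494 CPM in control. The adhesion gene copy epcam.S fell to 509 and 606 CPM with Pinhead, against 832 and 788 CPM in control (-0.54 ± 0.09, adjusted p = 0.00806, a call lost without library 1 or 2). Both Pinhead libraries were below both control libraries also for dlx3.L (213 and 196 CPM with Pinhead, 276 and 271 CPM in control), dlx3.S (286 and 292 CPM with Pinhead, 331 and 338 CPM in control), grhl3.L (271 and 243 CPM with Pinhead, 321 and 315 CPM in control), grhl3.S and epcam.L, and above them for both copies of tp63. None of these copies was called. Over all genes tested such separation was frequent, in 29.2% with Pinhead lower and in 28.6% with Pinhead higher. The summed level of the epidermis list was 56740 and 59543 CPM with Pinhead, against 63220 and 64041 CPM in control. Since these are bulk samples, fewer cells of a type and less RNA per cell cannot be told apart, here and in every comparison below.

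Early mesoderm regulators were the list with the highest share of members called. All 6 tested genes of the T-box and early mesoderm list rose, with a median log2 fold change of 5.98, and 6 other members (both copies of eomes, mix1 and mixer) were not tested for lack of counts. Their summed level was 163 and 243 CPM with Pinhead, against 3.56 and 3.28 CPM in control. At such control levels most of the 6 tested genes could pass the filter on low counts only through groups where they were high. The share called and the rank of the list thus follow in part from the filter. Brachyury, the T-box factor that marks the ring of early mesoderm, had 42.8 and 72 CPM of t.S in Pinhead explants, against 0.543 and 0.787 CPM in control explants. Its other copy t.L had 50.5 and 70.2 CPM in Pinhead explants, against 0.0603 and 0 CPM in control explants, which is a single control count. Every Pinhead library was thus far above every control library for both copies. The log2 fold change of t.S was 6.42 ± 0.55 (adjusted p = 0.000188). That of t.L was 10.60 (adjusted p = 8.65e-06, with 13 without library 1 and 9.80 without library 2), a fitted value that rests on the single control count. The vegetal T-box gene vegt.S had 36.4 and 48.2 CPM with Pinhead, against 0.543 and 0.459 CPM in control, and vegt.L had 11.1 and 15.4 CPM with Pinhead, against 1.45 and 0.919 CPM in control. Both copies rose, vegt.L by the smallest amount of the list (3.46 ± 0.44, adjusted p = 0.00185). The presomitic T-box gene tbx6.L reached 17.7 and 28.5 CPM with Pinhead, against 0.422 and 0.525 CPM in control (5.59 ± 0.57, adjusted p = 0.00056), and its copy tbx6.S rose by 4.97 ± 0.64 (adjusted p = 0.00292), a call lost without library 1.

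Genes of presomitic and paraxial mesoderm, the tissue that becomes somites, rose in large part. Of 57 tested, 26 were higher and 3 lower, with a median log2 fold change of 1.77. Fewer were called higher without library 1 (14) and without library 2 (16), and lower calls numbered 1 without either of these and 5 without library 7 or 8. The somite clock gene esr-5.L, a Notch-responsive hes-type repressor, had 37.6 and 43.8 CPM in Pinhead explants, against 0.241 and 0.262 CPM in control explants. It rose by 7.29 ± 0.46 on the log2 scale (adjusted p = 4.58e-05), and its copy esr-5.S rose by 4.99 ± 0.39 (adjusted p = 0.000121). Mesogenin (msgn1.L), a bHLH regulator of the presomitic state, had 12.8 and 13 CPM with Pinhead, against 0 and 0.0656 CPM in control. That is 409 times as much (95% counting interval 73.1 to 16205). The somite homeobox gene meox2.S had 10.5 and 11.6 CPM with Pinhead, against 0.0603 and 0 CPM in control, or 350.5 times as much (62.5 to 13879). Each had a single control count and stood above 10 CPM in each Pinhead library. Such genes could be tested only because they were higher in another group. The share called in the presomitic and paraxial list thus follows in part from the filter on low counts. The fitted fold of msgn1.L was 8.37 and ran from 7.47 without library 1 to 10.79 without library 2, and that of meox2.S was 8.16 and ran from 7.36 without library 2 to 10.56 without library 1. The protocadherin pcdh8.2.L, of the paraxial protocadherin family that acts in cell movement of the mesoderm, had 38.1 and 29 CPM with Pinhead, against 0.302 and 0.656 CPM in control (6.13 ± 0.50, adjusted p = 0.000157, and 6.76 without library 2).

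**Figure D2:**
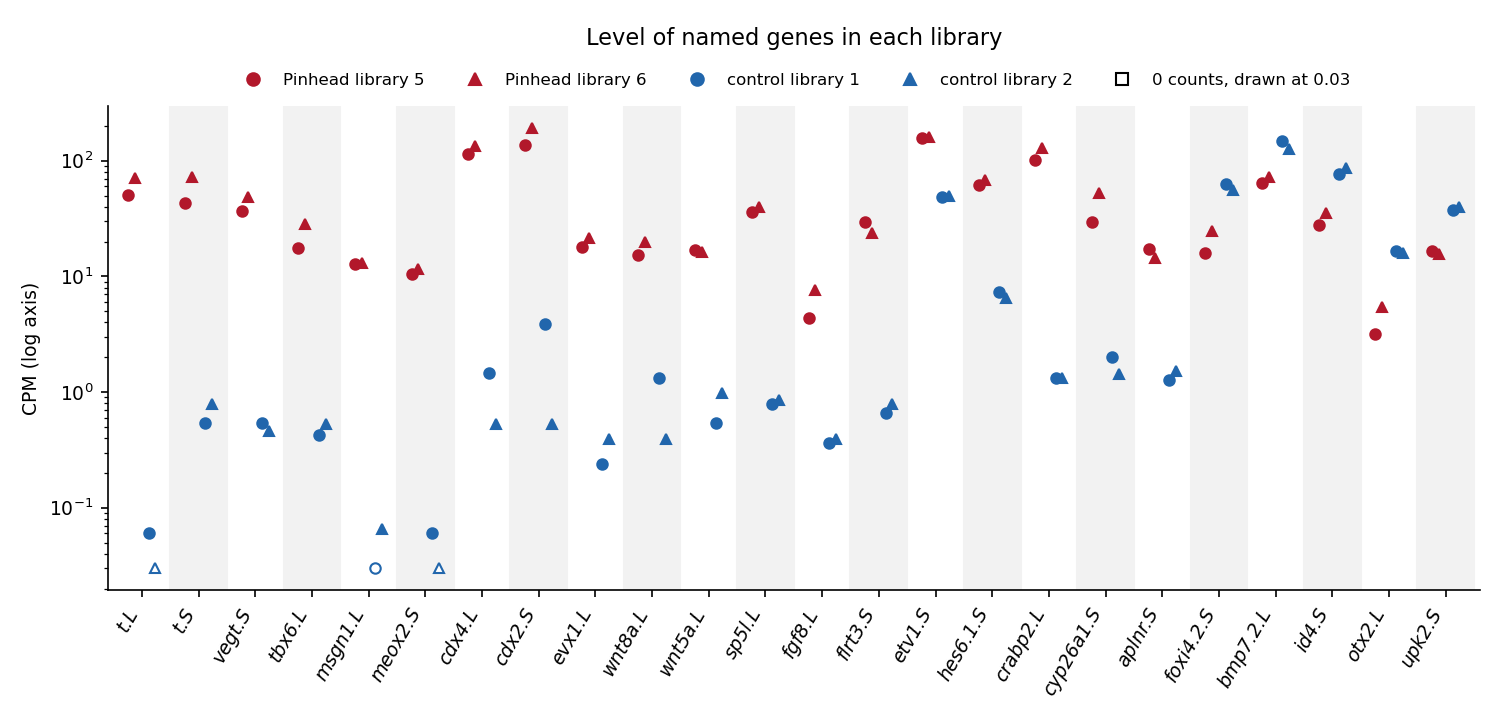
Level of 24 named genes in each of the 4 libraries, in CPM on a log axis, with Pinhead libraries in red to the left of control libraries in blue. The 2 libraries of a group lie close together beside the distance between the groups. All genes drawn were called and were chosen with earlier results known, so this separation follows from their choice. Open symbols, drawn at 0.03, mark libraries with 0 counts.

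Among the posterior homeobox genes, 8 of 9 tested cdx, evx and gbx genes rose, with a median log2 fold change of 6.04. Their summed level was 756 and 912 CPM with Pinhead, against 49.8 and 28.5 CPM in control. The highest of them, cdx2.L, had 249.9 and 296 CPM in Pinhead explants and was already present in control explants, at 38.6 and 25.4 CPM (3.09 ± 0.46, adjusted p = 0.00415, not called without library 2). Its copy cdx2.S had 137 and 191 CPM with Pinhead, against 3.86 and 0.525 CPM in control. The cdx genes of control library 1 were above those of library 2, and the fold changes moved with that difference. The log2 fold change of cdx2.S was 6.19 ± 0.65 (adjusted p = 0.000662, with 8.27 without library 1 and 5.41 without library 2), and that of cdx1.S was 6.57 ± 0.62 (7.65 without library 1). The even-skipped gene evx1.L, a homeobox gene of the posterior embryo, had 17.9 and 21.4 CPM with Pinhead, against 0.241 and 0.394 CPM in control (5.93 ± 0.44, adjusted p = 8.78e-05). The 1 tested gene not called was gbx2.2.S, at 1.53 and 1.1 CPM with Pinhead, beside 0.603 and 0.197 CPM in control. Genes near 0 in control, such as evx1.L, could be tested only because they were higher in another group. The share called in this list thus follows in part from the filter on low counts.

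Hox genes pattern the head-to-tail axis, with low-numbered paralog groups acting anteriorly and high-numbered ones posteriorly. Of 76 Hox genes 54 were tested, 42 rose, with 19 higher without library 1, 18 without library 2 and 27 without library 5. The median log2 fold change was 5.58, and 4.25 with the 14 genes that had no control count set to their lower bound against 3 counts over the control group. The share called differed along the paralog groups. In groups 1 to 3, 7 of 12 tested genes rose, with a summed level of 183 and 185 CPM with Pinhead, beside 128 and 115 CPM in control. In groups 4 to 8, 17 of 19 rose, with 180.2 and 216 CPM with Pinhead, beside 21.1 and 20.5 CPM in control. In groups 9 and 10, 14 of 14 rose, with 82.5 and 108 CPM with Pinhead, beside 1.57 and 2.17 CPM in control, and in groups 11 to 13, 4 of 9 rose, with 19.5 and 17.2 CPM with Pinhead, beside 4.95 and 4.33 CPM in control. Pooled in these bands, the middle groups thus had the larger relative change. Medians with bounds were 5.6 for groups 4 to 8 and 5.83 for groups 9 and 10. They were 1.94 for groups 1 to 3 and 2.57 for groups 11 to 13. Single groups did not all follow the bands. Without bounds, the median of group 4 was below the 2.52 of group 3. That of group 11 was 6.77, above groups 4, 5, 6 and 9 and below groups 7, 8 and 10. Groups 12 and 13 held no called gene. The anterior groups had the highest control level.

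Single Hox genes ranged from small rises to rises from no control count. The group 3 gene hoxa3.S had 33.2 and 27.5 CPM with Pinhead, against 9.23 and 8.66 CPM in control, a 3.39-fold rise (adjusted p = 0.000425). Its copy hoxa3.L was not called (0.13, adjusted p = 0.786). The paralog hoxd3.L had 11.3 and 12.9 CPM with Pinhead and no count in control, so that it was at least 128-fold higher against 3 counts over the group. The group 7 gene hoxa7.L had 27.7 and 31.5 CPM with Pinhead, against 0.543 and 0.459 CPM in control (5.86 ± 0.44, adjusted p = 0.000191). Another group 7 gene, hoxb7.L, had 13.8 and 17.2 CPM with Pinhead and no count in control, at least 162-fold higher. The group 10 gene hoxa10.L had 11.3 and 14.6 CPM with Pinhead, against 0.0603 and 0.0656 CPM in control, 203 times as much (95% counting interval 55.8 to 1680). By cluster, 8 of 14 tested hoxa genes, 10 of 12 hoxb, 13 of 17 hoxc and 11 of 11 hoxd genes rose. The hoxd genes together had 0.845 and 0.656 CPM in control, so their share also follows in part from the filter.

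**Figure D3:**
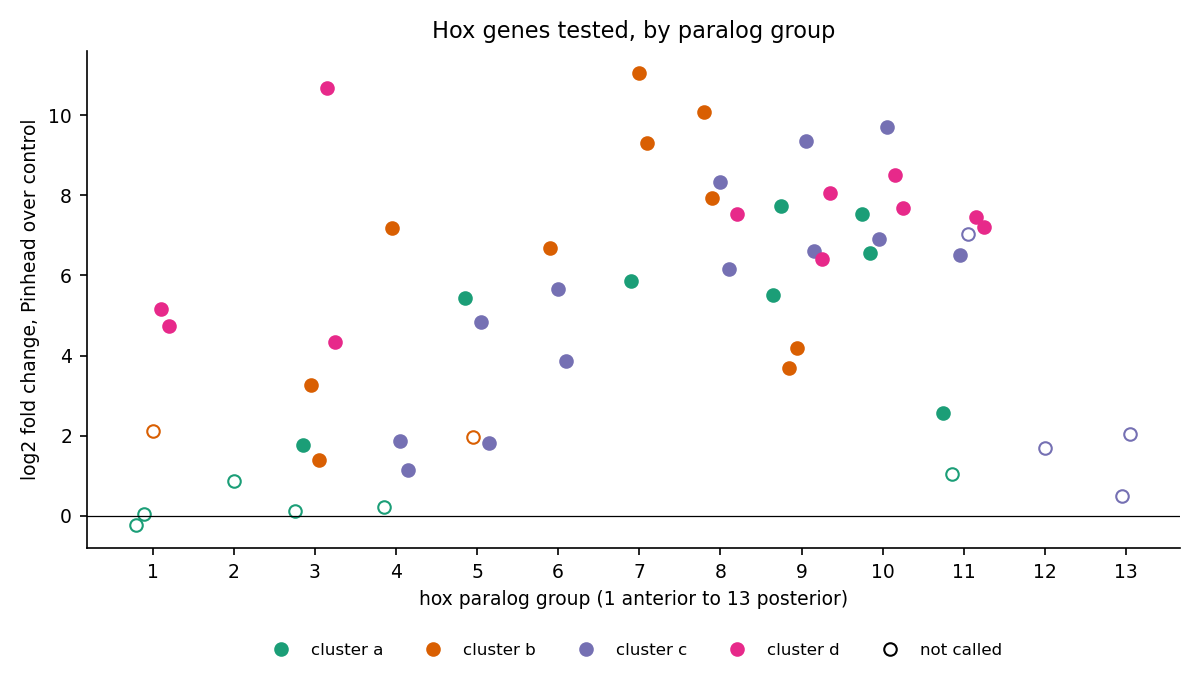
Log2 fold change, Pinhead over control, of the 54 tested Hox genes by paralog group, coloured by cluster, with open symbols for the 12 genes not called. Groups 9 and 10 have all 14 genes called, a share that follows in part from the filter on low counts. Fold changes of genes without control counts, such as hoxb7.L and hoxd3.L, depend on the prior count of the model.

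Wnt ligands rose where they changed. Of 25 tested ligand genes 9 were higher, and these were copies of wnt8a, wnt3a, wnt5a, wnt5b and wnt10a, of which both wnt3a calls were lost without library 1. The median log2 fold change of the list was 0.18, and 0.55 without the 6 genes that had 3 counts or fewer in both groups. Ligands near 0 in control could pass the filter on low counts only through groups where they were higher. The share of ligands called higher thus follows in part from the filter. The mesodermal ligand wnt8a.L had 15.3 and 19.7 CPM in Pinhead explants, against 1.33 and 0.394 CPM in control explants (4.31 ± 0.39, adjusted p = 0.000247, with 5.45 without library 1 and 3.71 without library 2). The ligand wnt5a.L, known from cell movement in gastrulation, had 16.8 and 16.4 CPM with Pinhead, against 0.543 and 0.984 CPM in control (4.44 ± 0.47, adjusted p = 0.000659), and wnt5a.S rose by 4.38 ± 0.44 (adjusted p = 0.000512). Its relative wnt5b.L was already at 32.3 and 22 CPM in control and reached 70.6 and 70.3 CPM with Pinhead, a 2.59-fold rise (adjusted p = 0.00102). The ligand wnt11b.L had 20.4 and 26.2 CPM with Pinhead, beside 17.1 and 17.1 CPM in control and was not called (adjusted p = 0.244).

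Wnt receptors and secreted antagonists were divided, with 7 higher and 7 lower of 43 tested. Without library 1, 2 or 5 the lower calls numbered 1, 3 and 4, and higher calls numbered 4 without library 1 and 3 without library 2. The Wnt5a receptor ror2.L had 8.54 and 8.88 CPM with Pinhead, against 2.72 and 1.97 CPM in control (1.88 ± 0.25, adjusted p = 0.00225), and ror2.S rose by 1.96 ± 0.28 (adjusted p = 0.00334). The Frizzled receptor fzd4.L fell to 10.4 and 10.7 CPM with Pinhead, against 22.7 and 22.1 CPM in control (-1.09 ± 0.13, adjusted p = 0.00125). The anterior Frizzled gene fzd8.S fell to 34.2 and 54.9 CPM, against 101 and 98.5 CPM in control (-1.17 ± 0.18, adjusted p = 0.00436, a call lost without library 1). As in every called gene, the library levels of the groups did not overlap for these receptors. Over all genes tested this held in 28.6% with Pinhead higher and in 29.2% with Pinhead lower.

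Feedback and target genes of the Wnt pathway rose, 16 of 36 tested against 2 lower, with a median log2 fold change of 0.79. Higher calls numbered 9 without library 1 and 10 without library 2 or 5, and lower calls 0 without library 1 or 2. The zinc finger gene sp5l.L, a direct Wnt target in vertebrates, had 35.9 and 39.5 CPM with Pinhead, against 0.785 and 0.853 CPM in control (5.51 ± 0.25, adjusted p = 6.77e-06). The feedback inhibitor axin2.L had 10.5 and 12.8 CPM with Pinhead, against 0.724 and 0.59 CPM in control (4.13 ± 0.35, adjusted p = 0.000173). Both were above control by many times the spread between libraries. Smaller rises were found for the Wnt-inactivating enzyme notum.S (3.85-fold, adjusted p = 0.000156), the receptor-removing ubiquitin ligase rnf43.L (1.14 ± 0.15, adjusted p = 0.00183), the nuclear effectors lef1.S (2.37 ± 0.32, adjusted p = 0.00232) and tcf7.S (1.38 ± 0.17, adjusted p = 0.00142), and myc.S (2.25-fold, adjusted p = 0.000121). The other copies lef1.L (0.34, adjusted p = 0.239) and myc.L (0.23, adjusted p = 0.138) were not called. The 2 that fell were the copies of tcf7l1, a repressor of Wnt targets, with tcf7l1.L at 48.7 and 66 CPM with Pinhead, against 93.7 and 95.5 CPM in control (adjusted p = 0.00955), both lost without library 1 or 2.

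FGF ligands and receptors were called higher in 9 of 21 and lower in 1, with a median log2 fold change of 0.41. The higher count was unstable, at 2 without library 1 and 4 without any 1 of libraries 2 to 6. The ligand fgf8.L had 4.38 and 7.64 CPM with Pinhead, against 0.362 and 0.394 CPM in control (3.94 ± 0.38, adjusted p = 0.000366). The receptor fgfr1.S had 19.4 and 21.7 CPM with Pinhead, against 9.96 and 11.2 CPM in control, a 1.94-fold rise (adjusted p = 0.00113), while fgfr4.S fell to 16.6 and 20.2 CPM, against 40.7 and 36 CPM in control (-1.06 ± 0.13, adjusted p = 0.00117). One receptor gene copy thus rose and another fell, while fgfr4.L was not called (0.41, adjusted p = 0.0507). The ligands fgf3.S, with 3.27 and 5.16 CPM with Pinhead, beside 0 and 0.0656 CPM in control, and fgf16.L, with 1.42 and 3.23 CPM and no control count, were also called. Both calls were lost without library 1, and the fitted fold of fgf3.S ran from 5.85 without library 1 to 9.17 without library 2, with that of fgf16.L at 7.63 without library 6 and 8.27 with all libraries. Like other genes near 0 in control, fgf3.S and fgf16.L could be tested only because they were higher in another group. The share of FGF ligands and receptors called higher thus follows in part from the filter on low counts.

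Feedback and target genes of the FGF pathway and its kinase ERK rose in 15 of 50 and fell in 2, with a median log2 fold change of 0.14. Lower calls numbered 0 without any 1 of libraries 1 to 4, 1 without library 5 and 4 without library 7 or 8. The transmembrane protein gene flrt3.S had 29.7 and 23.8 CPM with Pinhead, against 0.664 and 0.787 CPM in control (5.2 ± 0.23, adjusted p = 6.77e-06), and its copy flrt3.L had 34.3 and 38.7 CPM with Pinhead, against 3.38 and 3.02 CPM in control (3.51 ± 0.13, adjusted p = 4.91e-06). The ETS factor etv1.S had 158 and 161 CPM with Pinhead, against 48.6 and 49.5 CPM in control, and etv1.L rose by a similar amount (1.60 ± 0.11, adjusted p = 5.78e-05). Sprouty genes, inhibitors that FGF signalling itself turns on, rose in all 6 tested copies of spry1, spry2 and spry4, for example spry2.S by 2.28 ± 0.26 (adjusted p = 0.00101), but the calls of spry1.S and spry2.L were lost without several single libraries. The FGF inhibitor il17rd.S had 40.9 and 66.6 CPM with Pinhead, against 10.9 and 11.8 CPM in control (2.24 ± 0.22, adjusted p = 0.000381). The ERK phosphatase dusp6.L went the other way, with 29.4 and 39.8 CPM with Pinhead, beside 56.2 and 52.8 CPM in control (-0.66 ± 0.14, adjusted p = 0.0166), a call lost without any 1 of libraries 1 to 5.

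Of 49 tested members of the Notch pathway 19 rose and 2 fell, with a median log2 fold change of 0.33. Higher calls numbered 10 without library 1 and 11 without library 2, and lower calls 0 without library 1, 2 or 5, 1 without library 3 or 4 and 6 without library 7 or 8. Several are also genes of the somite clock, such as esr-5 above. The ligand dll1.L had 34.9 and 43.6 CPM with Pinhead, against 10.1 and 8.2 CPM in control (2.09 ± 0.21, adjusted p = 0.000423). The hes-related gene hes6.1.S had 61.8 and 68.6 CPM with Pinhead, against 7.36 and 6.5 CPM in control (3.23 ± 0.15, adjusted p = 6.77e-06), and hes6.1.L rose by 3.07 ± 0.18 (adjusted p = 3.21e-05). The receptor notch2.L had 24 and 17 CPM with Pinhead, against 5.49 and 4.72 CPM in control (2.01 ± 0.23, adjusted p = 0.000999), and the feedback gene nrarp.S had 123 and 118 CPM with Pinhead, against 59.1 and 56.4 CPM in control (1.06 ± 0.09, adjusted p = 0.000136).

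BMP pathway genes leaned the other way, with 3 higher and 11 lower of 58 tested and a median log2 fold change of -0.16. The lower count was 3 without library 1 or 2, 4 without library 5, 7 without library 6 and 20 without library 7 or 8, and the higher count 0 without library 1, 1 without library 2 or 5 and 6 without library 7 or 8. The ligand bmp7.2.L fell to 64 and 72.4 CPM with Pinhead, against 149 and 127 CPM in control (-1.02 ± 0.12, adjusted p = 0.0012). Id genes, inhibitory helix-loop-helix genes that BMP signalling turns on, fell in 6 copies, of which id4.S had 27.6 and 35.3 CPM with Pinhead, against 77.4 and 85.9 CPM in control (-1.38 ± 0.15, adjusted p = 0.000824). The more abundant id2.L had 166 and 199.8 CPM with Pinhead, against 354 and 327 CPM in control (-0.90 ± 0.13, adjusted p = 0.00322). As in every gene called lower, both Pinhead libraries lay below both control libraries for these genes, which held in 29.2% of all genes tested. Of the other id calls, id2.S was lost without any 1 of libraries 1 to 5 and id3.S without library 1, 2 or 5, while id3.L and id4.L were not followed singly.

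Of the 22 tested genes of the Nodal and activin pathway, 1 rose and 1 fell, with a median log2 fold change of 0.09. The TGF-beta family ligand gdf3.S had 18 and 19.5 CPM in Pinhead explants and no count in control explants, at least 198-fold higher against 3 counts over the group (edgeR adjusted p = 0.00116, not called by DESeq2). The Nodal effector foxh1.L fell to 5.96 and 5.92 CPM with Pinhead, against 13.3 and 12.9 CPM in control (-1.14 ± 0.16, adjusted p = 0.00322). The organizer gene gsc had no count in any of the 4 libraries in either copy, which allows at most 3 counts a library.

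Retinoic acid, made from vitamin A, is a posteriorizing signal that the Cyp26 enzymes break down. Of the 27 tested genes of this pathway, 6 rose and 3 fell, with a median log2 fold change of -0.02, and 5 of the 6 that rose were copies of crabp2 and of Cyp26 genes. The 3 lower calls were lost without any 1 of libraries 1 to 4, and lower calls numbered 1 without library 5 or 6 and 5 without library 7 or 8. The retinoic acid binding protein gene crabp2.L had 100.4 and 129.6 CPM with Pinhead, against 1.33 and 1.31 CPM in control, an 86.6-fold rise with the smallest adjusted p of the genes named here (4.09e-07), and its copy crabp2.S had 14.9 and 18.4 CPM with Pinhead, against 2.29 and 2.95 CPM in control (2.66 ± 0.21, adjusted p = 0.000121). The degrading enzyme gene cyp26a1.S had 29.3 and 52.6 CPM with Pinhead, against 1.99 and 1.44 CPM in control, and cyp26a1.L had 26.4 and 37 CPM with Pinhead, against 3.98 and 2.76 CPM in control (3.22 ± 0.27, adjusted p = 0.000166). The related cyp26c1.S, a hindbrain gene in vertebrates, had 14.2 and 12.9 CPM with Pinhead, against 0.0603 and 0.197 CPM in control (6.67 ± 0.28, adjusted p = 6.77e-06, with 6.06 without library 1 and 7.65 without library 2). The synthesis gene aldh1a2.S had 3.69 and 3.78 CPM with Pinhead, beside 4.77 and 4.99 CPM in control and was not called (adjusted p = 0.177), and rdh10.S, which makes the precursor of retinoic acid, fell to 38.4 and 66.1 CPM, against 113 and 100.3 CPM in control (adjusted p = 0.0143, lost without any 1 of libraries 1 to 4).

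Of the ventral and lateral mesoderm list, 9 of 45 rose and 7 fell, with a median log2 fold change of -0.37. Higher calls numbered 5 without library 1 and 2 without library 2, and lower calls 3 without any 1 of libraries 1, 2 and 5 and 18 without library 7 or 8. Of the 9 that rose 6 were ventx genes, homeobox genes known in Xenopus as ventral targets of BMP signalling. The copy ventx1.1.S had 17.3 and 17.1 CPM with Pinhead, against 4.22 and 4.66 CPM in control, a 3.87-fold rise (adjusted p = 0.00142), and ventx3.2.L had 19.8 and 24.9 CPM with Pinhead, against 0.0603 and 0.131 CPM in control, 234 times as much (95% counting interval 79.6 to 1136). The fitted log2 fold change of ventx3.2.L was 7.78, and 8.37 without library 2. The heart and foregut genes gata5.S, gata6.S and nkx2-5.S were among those that fell, of which gata5.S was lost without any 1 of libraries 1 to 5, and gata6.S had 1.95 and 1.65 CPM with Pinhead, against 6.94 and 5.45 CPM in control (adjusted p = 0.0136, lost without library 1, 2, 5 or 6). The homeobox gene isl1.S fell to 20.9 and 24.1 CPM, against 48.8 and 53 CPM in control (-1.18 ± 0.17, adjusted p = 0.00337).

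Defining genes of differentiated mesoderm and endoderm were mostly at or near 0 in the Pinhead explants, with few called. Of the notochord list, 4 of 36 rose and 1 fell (median log2 fold change 0.00), and 2 of the 4 were the copies of t. Its defining genes foxa4.L, foxa4.S, shh.S and col2a1.S had 0 or 1 count over both Pinhead libraries, and not.L had 0.633 and 0.826 CPM with Pinhead, beside 0.543 and 0.525 CPM in control. The copy shh.L had 1 count over both Pinhead libraries and 33 over both control libraries. It was not called by edgeR (adjusted p = 0.084) but was by DESeq2 (adjusted p = 0.0125). The copy not.S had 10 and 18 counts and shh.S 0 and 6, and neither was called. The collagen copy col2a1.L was above control in both Pinhead libraries, at 1.58 and 2.06 CPM with Pinhead, beside 0.845 and 1.05 CPM in control, and was not called. Of the skeletal muscle list, 5 of 34 rose and 2 fell (median 0.25), with 1 higher without library 1 or 2. The myogenic regulators myog and myf6 had 2 counts or fewer over both Pinhead libraries in each copy, and myod1.S had 0.58 and 1.79 CPM with Pinhead and no count in control. The muscle creatine kinase gene ckm.L had 6.8 and 4.68 CPM with Pinhead, beside 3.26 and 3.87 CPM in control, and was not called. The muscle regulator mef2d.S was the stable exception, at 18.2 and 21.4 CPM with Pinhead, against 1.63 and 1.12 CPM in control (3.83 ± 0.47, adjusted p = 0.00153), whereas the calls of actc1.S (7.7 and 8.19 CPM with Pinhead, 0.724 and 0.656 CPM in control) and of the myogenic gene myf5.L (1.21 and 4.27 CPM with Pinhead, no count in control) were lost without library 1 or 2. The call of myod1.S was lost without library 1, 2, 3, 4 or 6. The copies myod1.L (10 counts, beside 8 in control) and actc1.L (5 counts, beside 4 in control) were not called. The copy myf5.S (11 counts, beside 0 in control) was not tested. The 2 muscle genes that fell were tnnt3.L (-1.50, adjusted p = 0.0108, lost without library 2, 5 or 6) and tnni2.L (-0.96, adjusted p = 0.036, lost without library 1, 2, 5 or 6). In the notochord list the 1 lower call was lost without any 1 of libraries 1 to 5 and numbered 2 without library 6 and 3 without library 7 or 8, and in the muscle list the lower count was 1 without library 1 and 0 without library 2, 5 or 6.

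Of the blood and endothelium list, 3 of 22 rose (median log2 fold change -0.28), and these were both copies of the apelin receptor, which vascular precursors and migrating mesoderm use, and lmo2.S, whose fitted fold of 5.91 was 5.01 without library 1 and 8.33 without library 2. The receptor aplnr.S had 17.4 and 14.5 CPM with Pinhead, against 1.27 and 1.51 CPM in control (3.52 ± 0.23, adjusted p = 5.45e-05), and aplnr.L had 18.1 and 19 CPM with Pinhead, against 5.37 and 4.4 CPM in control (1.92 ± 0.15, adjusted p = 0.000106). The blood regulators tal1 and gata1 stayed under 0.5 CPM in every copy and library of both groups. Over both libraries, hba1.L had 21 counts with Pinhead and 3 in control, kdr.S 11 and 2, kdr.L 10 and 3, and hbg1.L 33 and 20. The other way went cdh5.L with 0 and 3 counts, tal1.L with 0 and 5 and tal1.S with 1 and 3. Of these copies only hbg1.L and cdh5.L were tested, and neither was called. Of the endoderm list, 3 of 20 rose and 4 fell (median -0.03), but 2 of the 3 were cdx2 copies, which also mark the posterior ectoderm and mesoderm. The endoderm regulator sox17a.S had 0.475 and 2.82 CPM with Pinhead, against 0.0603 and 0 CPM in control, a call lost without library 1, 2, 3, 4 or 6, and in all 4 sox17 copies listed (sox17a and sox17b.1) library 6 was above library 5. Its fitted fold of 5.36 ran from 3.65 without library 6 to 7.76 without library 1. Without library 2, 1 member of the list was higher, and lower calls numbered 0 without library 1, 2 or 5 and 1 without library 3 or 4.

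The lists of non-neural ectodermal cell types had more lower than higher calls, though summed levels were not lower in every list. Of the epidermis list, 1 of 65 rose and 14 fell, with a median log2 fold change of -0.20, with lower counts of 2 without library 1, 4 without library 2 or 5, 6 without library 3 or 4 and 27 without library 7 or 8, and higher counts of 0 without any 1 of libraries 1 to 5 and 6 without library 7 or 8. The uroplakin gene upk2.S, of the outer epidermal layer, had 16.5 and 15.5 CPM with Pinhead, against 37.6 and 39.4 CPM in control (-1.26 ± 0.14, adjusted p = 0.00095). Of 25 ionocyte genes, 5 fell (median -0.24, with lower counts of 2 without library 1, 3 without library 2, 5 or 6, 11 without library 7 and 12 without library 8), and 4 of the 5 were the foxi4.1 and foxi4.2 copies, forkhead genes of early ectoderm, of which foxi4.1.L was lost without library 1, 2, 5 or 6 and foxi4.2.L without library 1. The most abundant, foxi4.2.S, had 15.8 and 24.6 CPM with Pinhead, against 63.3 and 55.6 CPM in control (-1.57 ± 0.19, adjusted p = 0.00123). Of 47 genes of multiciliated cells, 4 fell (median -0.25), but no lower call was left without any 1 of libraries 1, 2, 3, 4 and 6, 1 was left without library 5, and 15 were made without library 7 or 8. Of 19 genes of goblet and small secretory cells 3 fell (median -0.07, with 1 without library 2), but their summed level was 11322 and 9882 CPM with Pinhead, against 6312 and 7267 CPM in control. Most of that sum was the mucus protein gene fcgbp.L, at 8878 and 7596 CPM with Pinhead, beside 4395 and 5170 CPM in control, which was not called (0.78, adjusted p = 0.107). A fit on the 4 libraries alone called 3 genes of this list higher and 3 lower. Of 71 placode genes 16 fell and 3 rose (median -0.32), with 7 lower without library 1 and 9 without library 2.

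**Figure D4:**
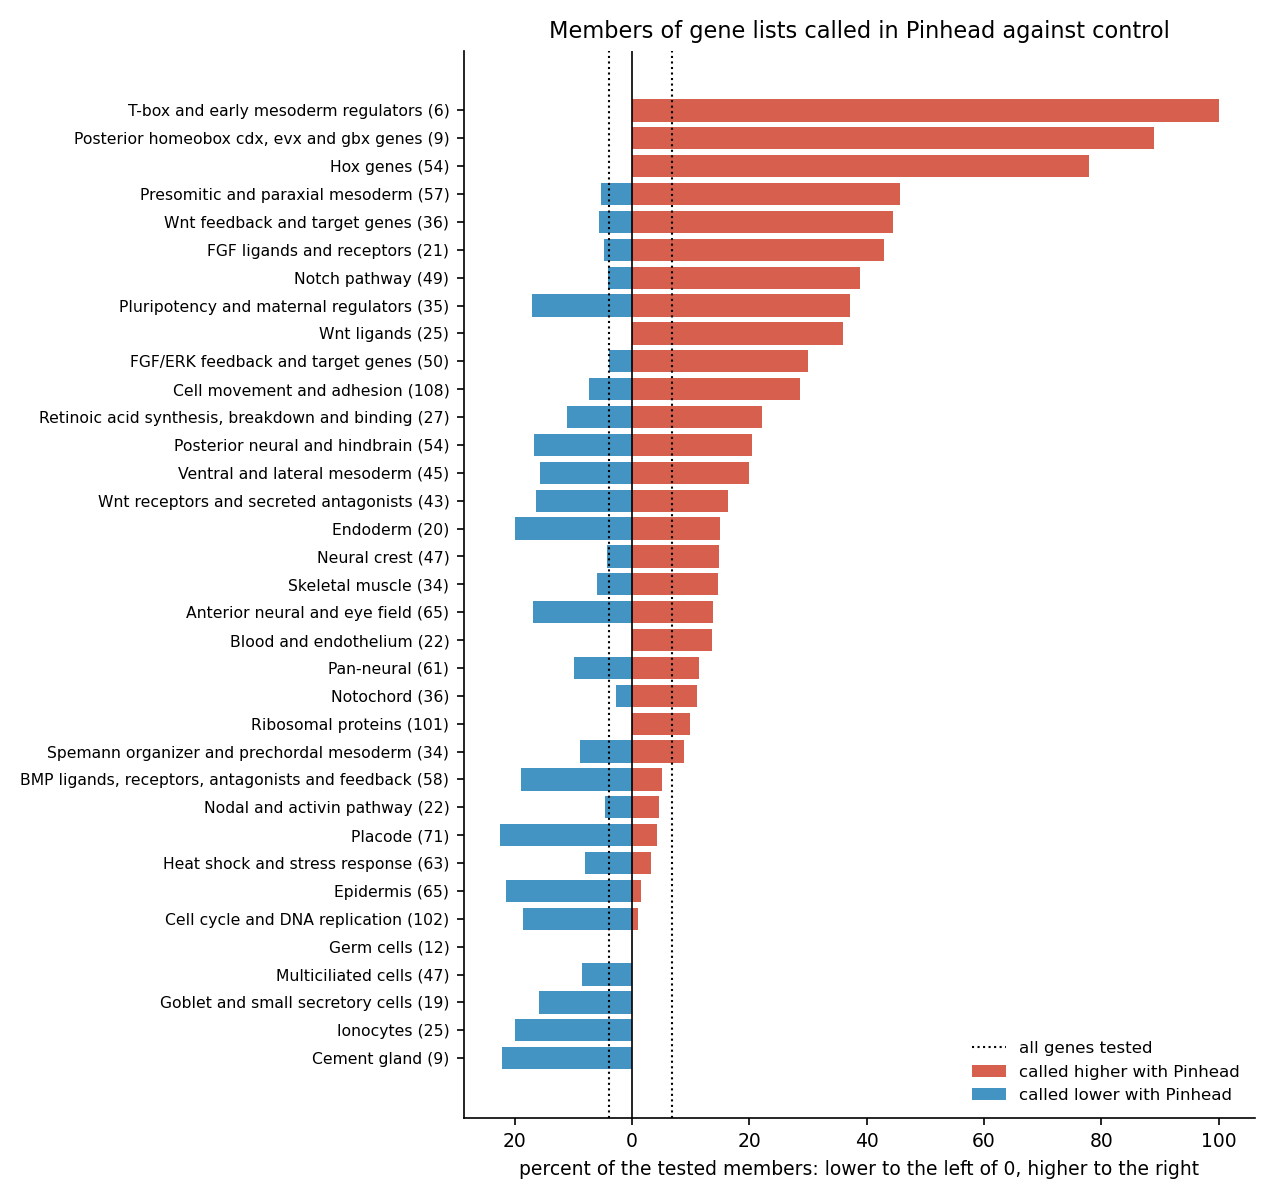
Percent of the tested members of each gene list that were called higher with Pinhead (right of 0) or lower (left of 0), with the number tested in brackets and dotted lines at 6.75% and 3.92%, the shares over all genes. The T-box list has all 6 tested genes called higher, a share that follows in part from the filter on low counts. So do the shares of the posterior homeobox, Hox, presomitic, Wnt ligand, and FGF ligand and receptor lists. The epidermis, ionocyte, multiciliated, goblet and cement gland lists hold 1 higher call in all.

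Neural lists held calls in both directions. Among 65 tested genes of anterior neural tissue and eye field, 9 rose and 11 fell, with a median log2 fold change of -0.36 (-0.49 with bounds and without genes of 3 counts or fewer), without library 1 or 2 the counts were 4 higher and 4 lower, and without library 5 lower calls numbered 4. The head homeobox gene otx2.L fell to 3.16 and 5.44 CPM with Pinhead, against 16.5 and 16 CPM in control (-1.94 ± 0.19, adjusted p = 0.000409). Its copy otx2.S was not called (-0.20, adjusted p = 0.344). The homeobox gene emx2.L, which in vertebrates acts in the dorsal forebrain and in the urogenital mesoderm, had 13.1 and 17.4 CPM with Pinhead, against 0.785 and 0.459 CPM in control (4.58 ± 0.34, adjusted p = 8.85e-05), and emx2.S rose by 4.48 ± 0.28 (adjusted p = 4.18e-05). Of 9 cement gland genes, 2 fell, otx2.L and agr2.S (median -0.57), and agr2.S, a secreted-pathway gene of mucus cells, had 44 and 57.8 CPM with Pinhead, against 106 and 122 CPM in control (-1.17 ± 0.13, adjusted p = 0.00102). Lower calls of this list numbered 4 without library 7 or 8.

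Of the posterior neural and hindbrain list, 11 of 54 rose and 9 fell (median log2 fold change 0.05), with lower counts of 1 without library 1, 2 without library 2 or 5 and 5 without library 3 or 4. The zinc finger gene znf703.S, a posterior gene of the frog neurula, had 67.2 and 77.1 CPM with Pinhead, against 7.6 and 5.18 CPM in control (3.49 ± 0.16, adjusted p = 7.71e-06). The spalt gene sall1.S had 45 and 41.5 CPM with Pinhead, against 3.62 and 2.62 CPM in control (3.78 ± 0.27, adjusted p = 8.32e-05). The Iroquois gene irx1.S fell to 4.16 ± 0.0588 CPM with Pinhead, against 12.7 ± 0.395 CPM in control (SD, n = 2 libraries each; log2 fold change -1.61 ± 0.15, adjusted p = 0.000273). Of 61 pan-neural genes, 7 rose and 6 fell (median -0.14, with 4 higher without library 1 or 2, and lower calls of 3 without any 1 of libraries 1 to 5 and 11 without library 7 or 8), and the neural plate genes sox2.S and sox3.L were not called. The level of sox3.L was 31.6 and 69.1 CPM with Pinhead, beside 74 and 63.5 CPM in control, so the groups overlapped. Its copy sox3.S was lower in both Pinhead libraries, at 20.9 and 40.9 CPM, beside 52.3 and 42.3 CPM in control, but was not called. The log2 fold changes of sox3.L and sox3.S were 0.01 and -0.20 without library 5, and -1.11 and -1.17 without library 6. Of the other defining genes, elavl3.L was lower in both Pinhead libraries and neurog2.L (10 counts, beside 5 in control) was higher, neither called. Of 47 neural crest genes, 7 rose and 2 fell (median 0.22, with higher counts of 3 without library 2, 4 without any 1 of libraries 1 and 3 to 6 and 12 without library 7 or 8, and lower counts of 0 without library 1, 2 or 5 and 1 without library 3 or 4), while the defining crest gene sox10 had 1 count or none over both Pinhead libraries in each copy and none in control. Another defining crest gene copy, snai2.S, was higher in both Pinhead libraries (1.95 and 2.82 CPM, beside 1.03 and 1.51 CPM in control). In contrast, snai2.L (3.69 and 3.85 CPM, beside 7.79 and 5.58 CPM in control) and twist1.S (7 counts, beside 16 in control) were lower in both. None of these copies was called.

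Genes of cell movement, adhesion and matrix were called higher in 31 of 108 and lower in 8, with a median log2 fold change of 0.20, and lower counts of 2 without library 1, 5 without library 2 or 5, and 14 without library 7 or 8. The neural and mesodermal cadherin cdh2.L had 8.23 and 9.49 CPM with Pinhead, against 1.81 and 2.03 CPM in control (2.2 ± 0.15, adjusted p = 6.42e-05). The laminin subunit lamb1.S, a basement membrane protein, had 129 and 115 CPM with Pinhead, against 35.4 and 35.4 CPM in control (1.79 ± 0.09, adjusted p = 1.41e-05). The matrix protease gene mmp11.S had 23.5 and 16.1 CPM with Pinhead, against 0.664 and 0.525 CPM in control (5.04 ± 0.30, adjusted p = 4.05e-05). The planar polarity gene prickle1.S had 18.6 and 23.3 CPM with Pinhead, against 1.03 and 1.18 CPM in control (4.24 ± 0.31, adjusted p = 8.32e-05), and the E-cadherin repressor zeb2.S rose by 3.08 ± 0.20 (adjusted p = 5.45e-05). The growth factor gene pdgfa.L, made by frog ectoderm and read by migrating mesoderm, fell to 14.5 and 17.4 CPM, against 47.9 and 47.8 CPM in control (-1.59 ± 0.15, adjusted p = 0.000402).

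Apart from the pinhead copies themselves, the 15 genes with the largest increase at a mean of 5 CPM or more were gdf3.S, t.L, msgn1.L, meox2.S, ventx3.2.L, esr-5.L, cyp26c1.S, cdx4.L, evx1.S, 5 Hox genes and kif26a.L. The atypical kinesin gene kif26a.L had 33.2 and 36.1 CPM with Pinhead, against 0.362 and 0.0656 CPM in control (7.25 ± 0.26, adjusted p = 4.02e-06, with 8.90 without library 1 and 6.55 without library 2). The Hox genes were hoxb7.L, hoxd3.L, hoxc8.L, hoxa10.L and hoxb6.S, of which hoxb6.S was not called without library 2. Where control counts were near 0 the fitted fold moved with the control library left out. Without library 1 it was 6.44 for evx1.S, 7.87 for cdx4.L, 10.74 for hoxc8.L and 10.48 for hoxb6.S, and without library 2 it was 10.69 for evx1.S, 7.53 for hoxc8.L and 5.8 for hoxb6.S. With all libraries it was 7.41 for evx1.S, 6.94 for cdx4.L, 8.34 for hoxc8.L and 6.69 for hoxb6.S. The 15 largest decreases had smaller folds and a more mixed set of genes. They included pkdcc.L, which codes for a secreted tyrosine kinase, at 1.85 and 2.48 CPM with Pinhead, beside 8.45 and 7.55 CPM in control (-1.91 ± 0.16, adjusted p = 0.000166), and slc16a9.L, a carrier of the monocarboxylate family, at 4.85 and 4.27 CPM with Pinhead, beside 13.8 and 13.8 CPM in control (-1.59 ± 0.20, adjusted p = 0.00193). The other copy, slc16a9.S, was called in the opposite direction, higher with Pinhead. Of these 15, the homeobox gene hhex.L had the largest decrease by fold, with 2.06 and 5.44 CPM with Pinhead, beside 19.7 and 22.9 CPM in control (-2.55 ± 0.54, adjusted p = 0.0181). This call was lost without any 1 of libraries 1 to 5, the fold ran between -1.96 without library 5 and -3.36 without library 6, and DESeq2 did not call it (adjusted p = 0.543). The other decreases of this set were those of otx2.L, slc7a8.S, aacs.L, htr1a.L, pcdh10.L, irx1.S, pdgfa.L, chrna2.L, foxi4.1.S, foxi4.2.S, fam211b.L and klf2.L, of which slc7a8.S was lost without library 5, aacs.L without library 1 or 2, htr1a.L and klf2.L without library 1, 2 or 5, and pcdh10.L without library 1. The fold of htr1a.L was -1.73, and -2.34 without library 6.

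The effect of Pinhead was different where Chordin, a secreted BMP antagonist, was also expressed. In explants with both proteins against explants with Chordin alone, a comparison that shares no library with the one above, 1494 genes were called higher (6.46%) and 982 lower (4.25%). Of the 1562 genes higher with Pinhead over control, 264 were also higher with both over Chordin, which is 16.9% of the first list and 17.7% of the second. Of the 907 genes lower with Pinhead, 80 were also lower with both over Chordin, 8.82% of the first list and 8.15% of the second, while 107 were higher. The difference between the effects was tested directly, and over all genes 1213 had a higher effect with Chordin than without (5.24%) and 1323 a lower one (5.72%). Of the 1562 genes, 794 (50.8%) had a called difference toward a smaller or opposite effect with Chordin, 21 toward a larger one, and 747 had no called difference. Because these genes were selected on Pinhead and control libraries that also enter the test of the difference, these shares are a description.

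The pinhead RNA itself differed between these settings. The level of pnhd.L was 429 and 486 CPM with both proteins, against 1.83 and 2.89 CPM with Chordin alone, so that its log2 fold change was smaller than without Chordin (difference -2.71, adjusted p = 0.0237). The short copy pnhd.S had 0.374 and 0.839 CPM with both proteins, or 0.0871% and 0.172% of the counts of both copies, against 0.561% and 1.33% in Pinhead explants without Chordin. How far the level of pinhead RNA accounts for the different effects was not tested.

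For some posterior genes the effects were not called different. The gene cdx2.S had 4.17 and 15.4 CPM with both proteins, against 0.166 and 0.0546 CPM with Chordin alone (6.40, beside 6.19 without Chordin, adjusted p of the difference 0.954). Its level with Chordin alone rests on few counts, since 3 counts stood for 0.166 CPM in library 3 and 0.164 CPM in library 4. The level of cdx2.S with both proteins was also far below that in Pinhead explants, given above. The library 8 values of the cdx genes were above those of library 7. These libraries also lay apart on the first principal component, the axis along which the 8 libraries differ most. Library 7 was at 89.9 and library 8 at 144, beside 137 and 136 for the Chordin libraries. Hox genes were called higher in 36 of 54 with both over Chordin, where all genes gave 6.46%. That share also follows in part from the filter on low counts. The difference between the effects was called for some Hox genes, toward a higher effect with Chordin for 5, hoxa3.L among them, and a lower one for 1. By contrast, kif26a.L had 62.8 and 60.2 CPM with both proteins, against 131 and 125 CPM with Chordin alone, so that it fell by 1.05 there and the difference was -8.30 (adjusted p = 6.25e-06). The gene crabp2.L had 921 and 961 CPM with both proteins, against 443 and 449 CPM with Chordin alone, a rise of 1.08 on the log2 scale where it rose by 6.44 without Chordin (difference -5.36, adjusted p = 6.25e-06). Chordin alone had thus already brought kif26a.L and crabp2.L above their levels in Pinhead explants. The level of cyp26c1.S was 153 and 162 CPM with both proteins and 164 and 142 CPM with Chordin alone (0.04, adjusted p = 0.864, difference -6.63). The apelin receptor aplnr.S had 2.43 and 3.19 CPM with both proteins and 4.43 and 3.99 CPM with Chordin alone, and was not called there (difference -4.10, adjusted p = 0.000265).

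Some genes that fell with Pinhead alone rose, or were not called, where Chordin was present. The Iroquois gene irx1.S, which fell with Pinhead alone, had 17.8 and 18.5 CPM with both proteins, against 3.1 and 3.28 CPM with Chordin alone, a rise of 2.50 on the log2 scale (difference 4.11, adjusted p = 2.7e-05). The receptor fgfr4.S likewise fell without Chordin and rose with it, to 120.4 and 129.6 CPM with both proteins, against 61.2 and 67.1 CPM with Chordin alone (difference 2.03, adjusted p = 0.000323). The head gene otx2.L had 249 and 255 CPM with both proteins and 246 and 251 CPM with Chordin alone, with no called change (0.02, adjusted p = 0.963, difference 1.96, adjusted p = 0.00199). The Brachyury copy t.S had 0.997 and 4.14 CPM with both proteins and 0.221 and 0.492 CPM with Chordin alone and was called neither changed there (adjusted p = 0.0541) nor different from its effect without Chordin (adjusted p = 0.118).

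**Figure D5:**
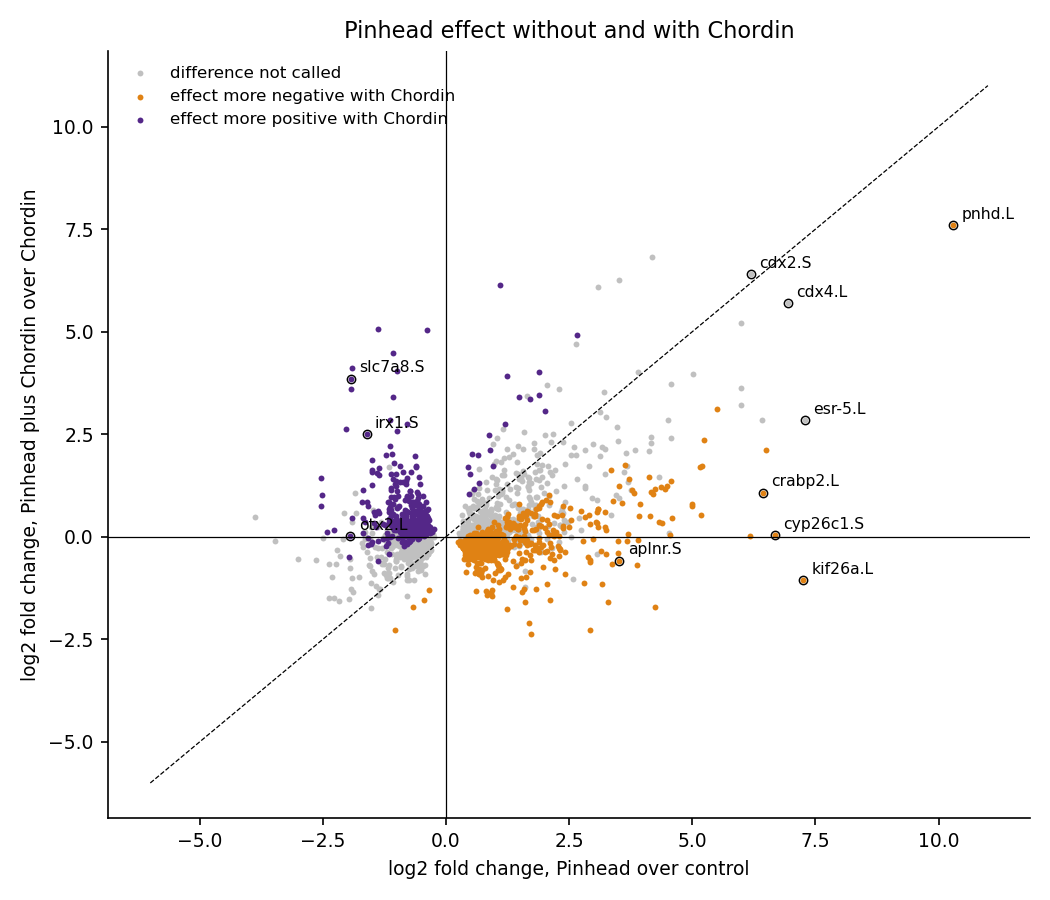
Log2 fold change of Pinhead over control (horizontal axis) and of Pinhead plus Chordin over Chordin (vertical axis) for the 2274 called genes with more than 3 counts in each of the 4 groups, of which 1392 were higher and 882 lower with Pinhead. The dashed line marks equal effects, colours mark genes whose difference was called, and genes such as crabp2.L lie far from 0 on the horizontal axis (6.44) and near it on the vertical axis (1.08).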

How the data were processed

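RNA from the explants was purified with an RNeasy kit and sequenced in 150 bp read pairs, per the labels. The deposited table holds raw counts per gene, per the labels and the values, in 2 run columns a library (16 columns for 8 libraries). Reads were aligned with HISAT2 per the submitters' processing notes. The aligner's version, the counter, the build and the gene models are not given in sources used here. Both runs of a library were summed (mean chi-square per gene between runs 1.39 to 1.53), and 1 line of the table was not analysed. Whether counting used strand is not stated, so genes that overlap on opposite strands are uncertain.

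Tests used edgeR 4.0.16 (on limma 3.58.1, R 4.3.3) and, as an alternative, DESeq2 1.42.0; matplotlib 3.10.9 under Python 3.11.15 drew the figures. Counts were normalized with TMM size factors, filtered by filterByExpr (minimum 10 counts, 15 in total), and fitted with 1 quasi-likelihood model over 4 groups and 8 libraries (4 residual degrees of freedom, common dispersion 0.014). Tests were 2-sided, Benjamini-Hochberg adjustment ran over all 23130 genes, and every adjusted p printed is from this edgeR fit unless another tool is named. Standard errors came from the quasi-likelihood F statistic. The code was tested on simulated data. A group without counts gave a lower bound of the fold, computed against 3 counts in that group as a whole, and a group of 1 to 3 counts gave a ratio with its exact 95% counting interval. Both cover counting error alone. For some genes of 3 control counts or fewer, such as t.L, fgf3.S, fgf16.L and sox17a.S, only the fitted fold is printed.

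The named genes were the copies of pnhd and chrd, the 15 genes per direction of largest fold at a mean of at least 5 CPM, up to 8 members of each of 35 gene lists by smallest adjusted p (every member in the main lists), and 5 per direction for the interaction; named list members are therefore not typical. Other members named, such as fcgbp.L, were chosen after their values were seen. The genes, lists and tests were chosen with earlier results of these data known. Of the tested genes 1283 (5.55%) stood in at least 1 list, as did 239 (15.3%) of those called higher and 124 (13.7%) of those called lower. Alternatives were other size factors, no filter, DESeq2, each run alone, fits on 4 or 6 libraries, and each library left out in turn.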

Additional observations from a re-analysis of the deposited data

Results flagged for a closer look

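The results below stand out because the effect of Pinhead differed, by the interaction test of the edgeR fit, between explants with and without Chordin. Over all genes, 1213 had a higher effect with Chordin and 1323 a lower one. Of the pinhead copies, the difference was -2.71 on the log2 scale for pnhd.L (adjusted p = 0.0237) and -5.92 for pnhd.S (adjusted p = 0.0351).

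Among the genes of largest increase with Pinhead alone, the difference was -8.45 for meox2.S (adjusted p = 0.0146, on 3 counts with both proteins and 4 with Chordin alone), -8.30 for kif26a.L (adjusted p = 6.25e-06) and -6.63 for cyp26c1.S (adjusted p = 2.7e-05). Among the genes of largest decrease, it was 1.96 for otx2.L, 5.79 for slc7a8.S, 2.38 for pkdcc.L, 2.14 for pcdh10.L, 4.11 for irx1.S, 1.39 for pdgfa.L, 2.35 for slc16a9.L, 1.53 for chrna2.L, 3.65 for foxi4.1.S and 1.34 for fam211b.L, so each of these falls was smaller or opposite with Chordin.

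The largest differences toward a higher effect with Chordin were 9.46 for dmrt2.L, 9.22 for ttll13.L, 7.70 for pou5f3.2.S, 7.54 for hoxa3.L and 7.1 for the cilia regulator foxj1.S. None of these 5 genes was called with Pinhead alone. Of them, dmrt2.L, ttll13.L and hoxa3.L, had no count with Chordin alone, so their fitted values depend on the prior count, and foxj1.S had 16.2 and 8.22 CPM with both proteins, against 0 and 0.218 CPM with Chordin alone. Further differences toward a lower effect were -6.42 for tox.L, -6.16 for mrc2.S and -5.36 for crabp2.L. For tox.L, the fitted effect without Chordin moved with the control library left out. It was 6.25 with all libraries, 8.65 without library 1 and 5.44 without library 2.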

How the results depend on the processing

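Settings other than the removal of a library moved some counts of calls by more than 1.5 times. For Pinhead over control, higher calls numbered 2562 with the 6 libraries without the group of both proteins, and lower calls 1651 without the filter on low counts, 589 with the second run alone, 1619 with the 4 libraries of the comparison alone and 1961 with those 6 libraries. Without the filter, calls with both proteins over Chordin numbered 2483 higher and 1645 lower, and called differences between the effects 2338 higher and 2157 lower; with the first run alone the higher differences numbered 805. Leaving out 1 library gave 471 to 2577 higher and 89 to 1911 lower for Pinhead over control, 472 to 2056 and 174 to 2179 for both over Chordin, and 254 to 2169 and 273 to 2805 for the difference. Other size factors and DESeq2 gave 1544 and 1186 higher and 882 and 616 lower genes. The causes of these shifts were not tested, beyond the change in libraries, reads or genes tested that the settings themselves impose.

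Of the 240 named genes called for Pinhead over control, 217 were called by DESeq2, 238 with other size factors, 140 without library 1, 149 without library 2, 169 without library 5 and 240 without library 7 or 8, and none changed direction under any of the alternatives. No paired analysis was possible because library numbers 1 to 8 are not shared between groups. With 2 libraries a group, a gene at 1 CPM rests on 14.5 to 19 counts a library, and folds against control levels near 0 rest on the floor or on the prior count.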

Other observations

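Genes of the cell cycle and DNA replication leaned lower in Pinhead explants. Of 102 tested, 19 fell and 1 rose, with a median log2 fold change of -0.24, where all genes gave 3.92% lower and 6.75% higher and a median of -0.01. The lower count was 1 without library 1, 2 without library 2, 9 without library 3 or 4, 6 without library 5 and 33 without library 7 or 8. The cyclin gene ccne2.L, which drives entry into DNA replication, had 35.9 and 42.8 CPM with Pinhead, against 69.9 and 64.8 CPM in control (-0.78 ± 0.11, adjusted p = 0.00322).

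Ribosomal protein genes were called higher in 10 of 101 (9.9%, beside 6.75% of all genes tested), with a median log2 fold change of 0.17. Of their values 91 were positive, beside 11336 of 23130 over all genes. The higher calls numbered 0 without library 1, 1 without any 1 of libraries 2 to 4, 4 without library 5, 6 without library 6 and 23 without library 7 or 8. Of 63 stress genes 2 rose (3.17%) and 5 fell (7.94%), beside 6.75% and 3.92% of all genes tested. Lower calls of this list numbered 1 without any 1 of libraries 1 to 4 and 2 without library 5, and higher calls 1 without library 1, 2 or 5. The DNA damage and growth arrest gene gadd45b.L fell to 0.633 and 0.757 CPM, against 4.59 and 4 CPM in control (-2.63 ± 0.32, adjusted p = 0.00152). The organizer list had 3 higher and 3 lower calls among 34 tested (8.82% each, beside 6.75% and 3.92% of all genes tested), with higher calls of 1 without library 2 and 6 without library 7 or 8, and lower calls of 1 without library 2 or 5, 5 without library 6 and 6 without library 7 or 8. The 12 tested germ cell genes had a median log2 fold change of -0.11.

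Of the list of pluripotency and maternal regulators, 13 of 35 rose and 6 fell, with a median log2 fold change of 0.25, and lower counts of 2 without library 1, 3 without library 2 or 5 and 11 without library 7 or 8. The RNA-binding gene lin28a.L, which holds back differentiation in vertebrates, had 168 and 138 CPM with Pinhead, against 68.6 and 69.9 CPM in control (1.15 ± 0.10, adjusted p = 0.00025). Its partner in that role trim71.S had 57.8 and 51.7 CPM with Pinhead, against 28.5 and 25.7 CPM in control (1.01 ± 0.11, adjusted p = 0.000824). The POU factor gene pou5f3.1.S fell to 32.7 and 33.7 CPM, against 63.8 and 68.4 CPM in control (-0.99 ± 0.12, adjusted p = 0.00152), so genes of this list moved in both directions.

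Both copies were tested in 6596 pairs of long and short gene copies. In 220 pairs (3.34%) both copies rose and in 76 both fell, while in 344 the long copy alone and in 276 the short copy alone was called higher, a call in 1 copy alone not showing that the copies differ. In 9 pairs the copies were called in opposite directions. One of them was the neural plate gene zic2, of which zic2.L had 5.85 and 9.49 CPM with Pinhead, against 2.47 and 2.49 CPM in control, and zic2.S had 1.42 and 3.23 CPM with Pinhead, against 5.97 and 4.86 CPM in control. This pair was chosen after its values were seen, and reads exchanged between near-identical copies were not tested as a cause.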
